A study of Mus musculus with 45 samples.

Results

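The 50 genes described here are cell cycle and proliferation genes, chosen by name: 17 that serve DNA replication in S phase, 8 that govern the passage from G1 into S, and 25 that serve G2 and mitosis. Each of the 50 symbols was found once in both deposited tables, among 52636 genes, and each was at 1 CPM (counts scaled to the library total) or more in all 45 libraries, so that no member was lost to a filter on low values. The genes were followed across stage, gut region, Lgr5 genotype, Rspondin ligand and Rspondin dose, in 15 libraries of sorted cells and 30 libraries of organoids.

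The sorted cells were the eGFP+ve cells of the small intestine of Lgr5-DTReGFP mice, in which an insert that codes for eGFP and for the receptor of diphtheria toxin disrupts Lgr5, so that heterozygotes (HE) carry 1 disrupted allele and homozygotes (KO) carry none that is intact. At E16.5 there were 2 HE pools, of 7 and 8 embryos, and 2 KO pools, of 2 and 6 embryos, and pools of the same number came from the same litter. At E18.5 there were 2 single HE embryos, and from 2 adult HE mice aged 2 months there was 1 library each of duodenum and of ileum. A second adult set held eGFP+ve/RFP+ve cells of the ileum 48 h after 2 mg of tamoxifen, in 2 libraries labelled Lgr5-Cre/+ (HE) and 3 labelled Lgr5-Cre/flox (cKO), so that the Cre acts only in cells that express Lgr5. The organoids were grown from single E17.5 Lgr5-DTReGFP embryos, 3 WT cultures (10, 5 and 30) and 2 KO cultures (7 and 2), and each culture was treated at passage 4 with Rspondin 1, 2 or 3 (Rspo1, Rspo2, Rspo3) at 100 or 5 ng/ml, which makes 12 groups. All sorted groups therefore carry at least 1 altered Lgr5 allele, and only the WT organoids have both copies intact.

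A cell enters S phase when cyclin D with Cdk4 or Cdk6, and then cyclin E with Cdk2, release the E2F factors from the retinoblastoma protein, and E2F then drives the genes that license and copy DNA. A second wave, driven by the MuvB complex with B-Myb and Foxm1 and read from promoters with CHR elements, brings cyclin A, cyclin B, Cdk1 and the kinases, motors and centromere proteins of mitosis. In the intestine, crypt base stem cells divide steadily and transit amplifying cells divide fast, and Rspondins, which bind Lgr4, Lgr5 and Lgr6, raise Wnt signalling and with it the division of these cells.

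The start regions of 5 genes show the letters searched in each class. They are printed from 250 bases before to 50 bases after the gene start that RefSeq lists on GRCm38.p6, with E2F letters (TTTCCCGC, TTTCGCGC, TTTGGCGC or TTTGCCGC, on either strand) and CHR letters (TTTGAA or TTCGAA, on either strand) in capitals. Mcm5 and Mcm6 code for subunits of the replicative helicase, Mki67 for a coat protein of mitotic chromosomes, Cdk1 for the kinase that starts mitosis, and Plk1 for a kinase of the mitotic spindle.
Mcm5 (chr8:75109259-75109558, + strand): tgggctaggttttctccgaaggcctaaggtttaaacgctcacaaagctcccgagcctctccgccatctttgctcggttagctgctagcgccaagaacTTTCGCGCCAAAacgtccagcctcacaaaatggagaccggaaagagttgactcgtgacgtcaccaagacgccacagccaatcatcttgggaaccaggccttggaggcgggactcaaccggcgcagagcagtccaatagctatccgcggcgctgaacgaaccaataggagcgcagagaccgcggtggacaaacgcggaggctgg
Mcm6 (chr1:128359656-128359955, - strand): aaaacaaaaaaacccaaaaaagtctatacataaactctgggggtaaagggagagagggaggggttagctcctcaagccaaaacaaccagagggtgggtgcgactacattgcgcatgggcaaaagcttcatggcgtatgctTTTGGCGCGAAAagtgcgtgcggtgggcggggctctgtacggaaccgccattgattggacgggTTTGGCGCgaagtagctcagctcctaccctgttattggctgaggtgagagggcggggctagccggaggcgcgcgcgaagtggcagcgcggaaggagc
Mki67 (chr7:135716330-135716629, - strand): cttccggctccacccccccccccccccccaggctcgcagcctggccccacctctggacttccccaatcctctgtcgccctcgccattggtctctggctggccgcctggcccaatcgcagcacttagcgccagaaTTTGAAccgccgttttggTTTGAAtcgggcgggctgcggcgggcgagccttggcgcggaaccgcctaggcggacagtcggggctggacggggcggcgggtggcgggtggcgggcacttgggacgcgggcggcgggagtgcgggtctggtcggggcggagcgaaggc
Cdk1 (chr10:69352863-69353162, - strand): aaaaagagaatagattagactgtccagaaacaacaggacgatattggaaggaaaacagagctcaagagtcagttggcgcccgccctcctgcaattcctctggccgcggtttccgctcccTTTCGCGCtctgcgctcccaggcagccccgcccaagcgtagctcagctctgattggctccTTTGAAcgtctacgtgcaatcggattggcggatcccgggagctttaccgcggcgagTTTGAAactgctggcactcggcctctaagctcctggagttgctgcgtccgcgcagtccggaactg
Plk1 (chr7:122159185-122159484, + strand): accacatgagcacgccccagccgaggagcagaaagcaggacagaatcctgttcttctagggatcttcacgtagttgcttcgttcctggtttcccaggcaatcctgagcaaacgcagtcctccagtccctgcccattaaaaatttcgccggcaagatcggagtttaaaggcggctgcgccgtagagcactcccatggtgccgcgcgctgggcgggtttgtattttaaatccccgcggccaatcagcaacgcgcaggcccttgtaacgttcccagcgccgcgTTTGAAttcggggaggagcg
In Mcm5 the capitals start at position -153 and hold 2 E2F matches that overlap, TTTCGCGC on the printed strand and TTTGGCGC on the other, and Mcm6 holds 3 E2F matches, starting at -110, -106 and -47. Mki67 holds CHR letters at -116 and -98, and Cdk1 holds both kinds, E2F at -131 and CHR at -71 and -15. In Plk1 the only capitals, at position 31, lie beyond the start. A start region was at hand for 39 of the 50 genes. E2F letters were in 6 of 15 S phase genes (40.0%) and in 1 of 19 mitotic genes (5.26%), against 2.32% of 27025 start regions of the same length. CHR letters were in 15 of 19 mitotic genes (78.9%), in 3 of 15 S phase genes (20.0%) and in 19.4% of all start regions. The letters CCAAT, also on either strand, were in 17 of 19 mitotic genes (89.5%) and 11 of 15 S phase genes (73.3%), against 37.9% of all. These matches describe letters in a window of 300 bases and are no measure of binding.

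Per kilobase of exon, the highest levels in E16.5 HE cells were those of Pcna, the sliding clamp of DNA polymerases (160.6 CPM per kb), and Mki67 (155.1), and the lowest was that of Cdk2, the partner of cyclin E (2.5). In E18.5 HE cells Mki67 was again high (154.7 CPM per kb) and Top2a, the topoisomerase that untangles sister chromatids, came next (90.5), while Ung, which removes uracil from DNA, was lowest (4.31). In WT organoids with Rspo1 at 100 ng/ml the order was led by Cdk4 (94.6 CPM per kb), Ccnd2 (63.8) and Mki67 (60.5), and Cdc25c, a phosphatase that activates Cdk1, was lowest (2.23). These levels are per length, so that genes can be set beside each other; all values that follow are CPM.

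Depth, recovered from the spacing of the lowest values, ran from 1275948 to 9953997 reads in the sorted cells, and the E16.5 HE pool with the fewest reads resolves no step finer than 0.784 CPM. The organoid libraries hold at least 10000000 reads each. Lgr5 itself was called lower in KO at E16.5, with 104.25 and 125.1 CPM in HE against 64.75 and 51.65 CPM in KO, a change in the direction of the labels (log2 fold change -0.97 ± 0.18 SE, adjusted p = 0.079 by limma). All these are bulk libraries, in which fewer cells of a type and less RNA per cell cannot be told apart. Only the litters, embryos, mice and cultures named above stand behind the libraries, so that each p-value rests on few animals. In fits without a block, duodenum and ileum of a mouse, and treatments of a culture, counted as separate samples. Those p-values take libraries that share an animal as independent.

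**Figure D1:**
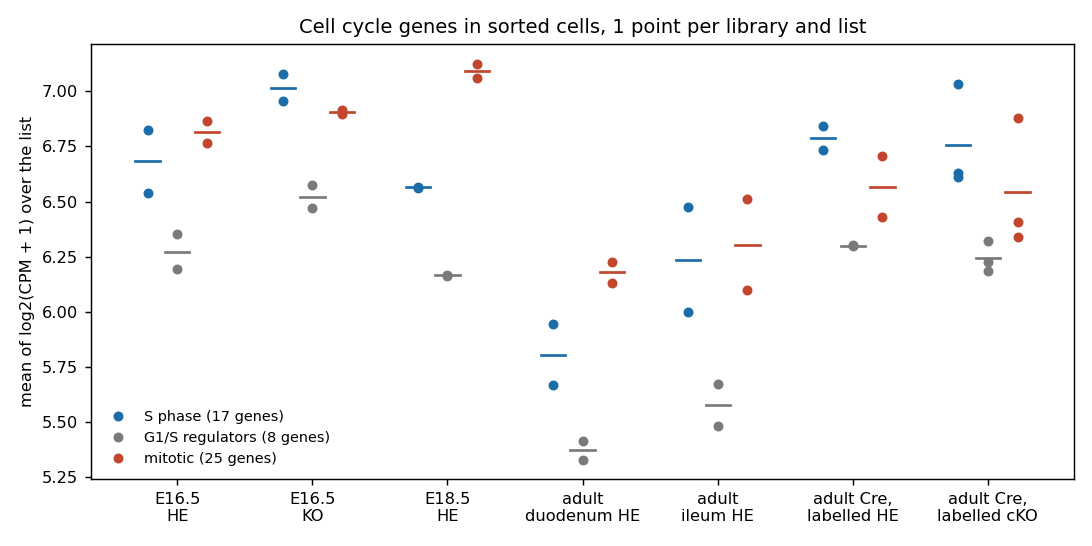
Mean of log2(CPM + 1) over the S phase, G1/S and mitotic genes (y axis) in each sorted-cell library, by group (x axis), with a bar at the group mean. S phase and mitotic means of the E16.5 and E18.5 libraries lie at 6.54 to 7.12, and the adult duodenum has the lowest S phase means, 5.94 and 5.67; the y axis does not start at 0.

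The first question was whether the loss of Lgr5 at E16.5 moved the division genes of the stem cell precursors. Of 17276 genes tested, 91 were called (0.527%), where a call needed an FDR below 0.1 with more than a 1.5-fold change, and 0 of the 50 members were among them. At an unadjusted p under 0.05 there were 10 members and 2354 genes in all (13.6%) by limma, and the count tests of edgeR and DESeq2 on the recovered reads also called 0 members. The S phase genes leaned upwards in the KO pools: both KO pools lay above both HE pools for 12 of 17, against 27.4% of all genes tested, and their median log2 fold change was 0.35, against 0.08 over all genes. Without HE pool 1 that median was 0.18, and the count tests gave 0.24. The mitotic genes had 8 of 25 above and a median of 0.03, which was -0.02 with TMM scaling, and the G1/S genes 4 of 8 above and a median of 0.36, which was 0.07 without HE pool 1.

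Mcm2, a subunit of the helicase that is loaded at replication origins, gave 64.3 and 68.1 CPM in HE against 101.1 and 108.8 CPM in KO (0.66 ± 0.16 SE, adjusted p = 0.13 by limma). Mcm10, which helps to activate that helicase, was at 30.6 and 48.95 CPM in HE and at 70.85 and 66.35 CPM in KO (0.81 ± 0.23, adjusted p = 0.18). For both genes the pools of the genotypes did not overlap. With the litter as a block they were the 2 of 50 members called, no larger a share than the 4.8% of all genes. Their adjusted p was then 0.012 for Mcm2 and 0.0046 for Mcm10 by limma. Cdc6, the factor that loads the helicase, was at 18.85 and 19.2 CPM in HE against 32.95 and 32.2 CPM in KO, and Mcm5 at 122.3 and 138.25 CPM against 165.1 and 186.2 CPM. Neither of them was called, with adjusted p of 0.21 for Cdc6 and 0.26 for Mcm5 by limma. Without either HE pool the number of members called was 2 or 3.

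Mki67, by contrast, gave 1403.7 and 1717.55 CPM in HE against 1537.55 and 1395.15 CPM in KO, so that the genotypes overlapped (-0.08 ± 0.15 SE, adjusted p = 0.84 by limma). Pcna gave 314.3 and 456.5 CPM in HE and 361.15 and 387.5 CPM in KO, and Cdk1 gave 92.5 and 124.1 CPM against 97.3 and 100.85 CPM. Values of the KO pools lay between those of the HE pools for both. Ccnb1, cyclin B1, was likewise within the HE range (146.5 and 147.1 CPM in KO, 139.55 and 168.0 CPM in HE). Plk1 stood apart from these mitotic genes, at 60.35 and 56.5 CPM in HE and 74.3 and 84.6 CPM in KO, with a change of 0.43 ± 0.17 that was not called (adjusted p = 0.29 by limma). Among the D cyclins, which answer growth signals, Ccnd1 was at 168.55 and 219.95 CPM in HE and 242.05 and 264.45 CPM in KO (0.39 ± 0.16, adjusted p = 0.32), and Ccnd2 at 998.5 and 1104.7 CPM against 1076.1 and 1162.5 CPM (0.09 ± 0.14). Ccne1, cyclin E1, had a wide spread at low level, 12.55 and 22.2 CPM in HE and 18.0 and 27.8 CPM in KO.

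Of the related genes outside the members, 1 was called: Cdkn1c, the CDK inhibitor p57, fell by 0.87 on the log2 scale (SE 0.14, adjusted p = 0.067 by limma), from 295.5 and 259.8 CPM in HE to 146.7 and 156.05 CPM in KO. Neither the 35 other replication genes nor the 31 other mitotic genes tested held a call. Markers of other cells moved with this comparison. The summed CPM of 10 mesenchyme markers was 837.65 to 1823.2 in HE and 185.2 to 506.4 in KO, with 9 of the 9 tested lower in both KO pools Twist1 at 0 in KO and none of the 10 at 0 in HE. The 6 erythroid markers summed to 1059.45 to 1178.9 in HE and 309.5 to 491.65 in KO, and the 12 enterocyte markers, of which Treh was at 0 in all 4 pools, to 2491.65 to 3036.45 and 1597.4 to 1671.85. The 10 Paneth cell markers were higher in sum in KO, 164.5 to 326.8 against 91.55 to 101.25, with Defa21 and Defa22 at 0 in HE. Their part in the lean of the S phase genes was not tested.

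**Figure D2:**
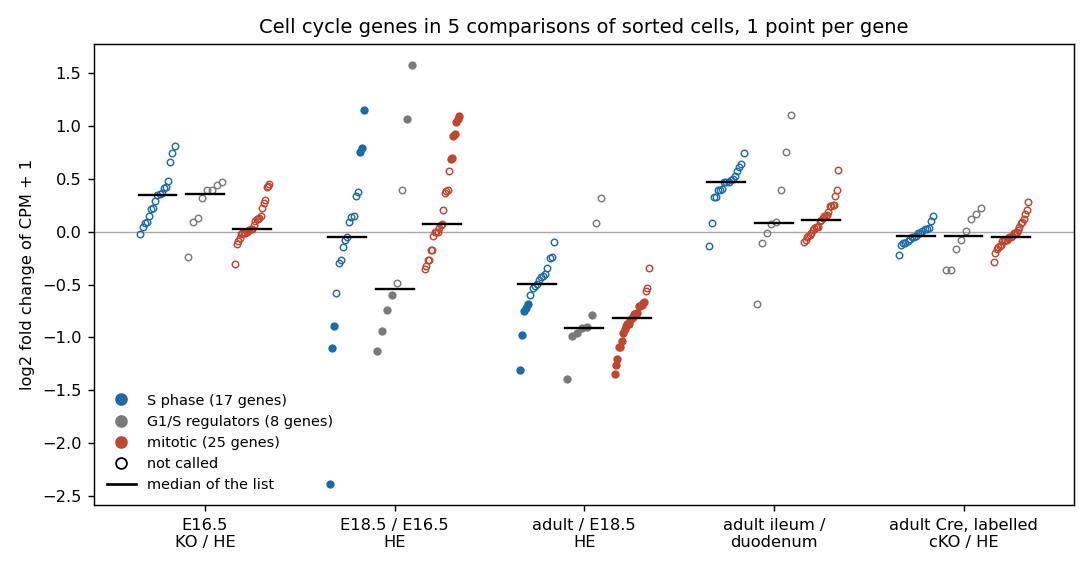
Log2 fold change of CPM + 1 (y axis) of each member in 5 comparisons of sorted cells (x axis), filled where called, with a bar at the median of each list. S phase medians at E16.5 and between gut regions are 0.35 and 0.47, against mitotic medians of 0.03 and 0.11. No member is called in either comparison. The S phase median is 0.18 at E16.5 without HE pool 1, and 0.11 between regions without the ileum of mouse 71. Nearly all members lie below 0 in adult against E18.5 cells.

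Between E16.5 and E18.5, in HE cells, the division genes did not move as a block. Of the 50 members 19 were called, 12 higher and 7 lower, where 49.6% of 18408 genes were called, 30.3% higher and 19.4% lower, so that the share of members called was below that of all genes. The mitotic genes called, 7 of 25, were all higher at E18.5, no larger a share than the 30.3% of all genes. The genes called in the G1/S group were split, 2 higher and 4 lower of 8, and so were those of S phase, 3 higher and 3 lower of 17. The median log2 fold changes were 0.07 for mitotic, -0.54 for G1/S and -0.05 for S phase genes, against 0.23 over all genes. This comparison shares the HE pools with the comparison of genotypes above. The E16.5 HE pools held 1275948 and 1982485 reads, and the single E18.5 embryos 4336395 and 4565898. Depth and pooling of embryos thus cannot be told apart from stage here.

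Ung had the largest fall among members, from 124.65 and 129.65 CPM at E16.5 to 26.55 and 20.6 CPM at E18.5 (-2.39 ± 0.16 SE, adjusted p = 0.0003 by limma). Ccnd2 fell from 998.5 and 1104.7 CPM to 481.55 and 474.85 CPM (-1.13 ± 0.10, adjusted p = 0.00057), and Pcna from 314.3 and 456.5 CPM to 184.05 and 167.8 CPM (-1.10 ± 0.18, adjusted p = 0.0043). The stages did not overlap for any of these 3 genes. Ccnd1 went the same way, from 168.55 and 219.95 CPM to 93.4 and 107.1 CPM (-0.94 ± 0.16, adjusted p = 0.0045).

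The largest rise was that of Cdk2, from a mean of 15.6 CPM to 49.85 and 47.1 CPM (1.58 ± 0.17 SE, adjusted p = 0.0011 by limma). Mcm10 rose from 30.6 and 48.95 CPM to 85.8 and 88.5 CPM (1.15 ± 0.22, adjusted p = 0.0077), and Ccnb2, cyclin B2, from 42.35 and 41.4 CPM to 86.5 and 94.65 CPM (1.09 ± 0.13, adjusted p = 0.0013). These 3 genes belong to the 3 different lists. The values of other proliferation markers were closer between the stages: Mki67 was at 1495.05 and 1617.0 CPM at E18.5 (0.00 ± 0.13), Ccnb1 at 132.6 and 138.2 CPM (-0.18 ± 0.12), Cdk1 at 83.25 and 94.2 CPM (-0.27 ± 0.17) and Mcm5 at 110.0 and 106.25 CPM (-0.26 ± 0.11). None of these 4 was called. Plk1, at 81.65 and 93.35 CPM (0.57 ± 0.13, adjusted p = 0.013), passed the FDR and missed the fold limit, and Ccne1, at 21.95 and 22.6 CPM (0.39 ± 0.29), was not called.

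Among the related genes, the other mitotic genes had 12 called higher and 3 lower of 31, and the genes of the RB, E2F, DREAM and MYC group 10 higher and 1 lower of 26. The other replication genes were split, 7 higher and 8 lower of 35, with the largest rise in Orc5, a subunit of the origin recognition complex (1.74 ± 0.18 SE, from a mean of 14.8 to 51.3 CPM, adjusted p = 0.00092 by limma). Cdkn1c had the largest fall of the related genes, from a mean of 277.6 to 51.3 CPM (-2.41 ± 0.12, adjusted p = 0.00015), and Myc, a Wnt target that drives growth, rose by 0.97 ± 0.22 (adjusted p = 0.012). Mesenchyme markers summed to 79.35 to 83.95 CPM at E18.5, with Twist1 at 0, and erythroid markers to 26.65 to 54.95 CPM, both below the E16.5 HE ranges given above, and the markers of intestinal stem cells (8 of 9 found, Lgr5 among them) summed to 1482.6 to 1508.1 CPM at E16.5 and 4581.6 to 4963.05 CPM at E18.5. Their part in these changes was not tested.

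Adult Lgr5-DTReGFP HE cells held less of the division transcripts than E18.5 HE cells. Of the members, 33 were called lower and 0 higher, against 9.65% called lower and 9.36% called higher of 19554 genes, and in 40 of the 50 all 4 adult libraries lay below both E18.5 libraries (24.4% of all genes). The mitotic genes had 22 of 25 called and a median log2 fold change of -0.82, the G1/S genes 6 of 8 and -0.91, and the S phase genes 5 of 17 and -0.49, against a median of -0.04 over all genes. The 4 adult libraries came from 2 mice. With the mean of the 2 regions of each mouse, duodenum alone or ileum alone, the number of members called stayed within 1.5-fold of 33, but without either E18.5 embryo it was 10 or 11. The S phase count moved most with the adult libraries, to 12 without the ileum of mouse 71, 13 with duodenum alone and 2 with ileum alone. This comparison shares the E18.5 libraries with the one before. The tamoxifen ileum libraries labelled HE were not in it. Their S phase means of log2(CPM + 1) were 6.74 and 6.84, against 6.56 and 6.57 at E18.5. Their G1/S means were both 6.30, against 6.17 and 6.16, and their mitotic means were 6.71 and 6.43, against 7.06 and 7.12.

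Ccne1 fell from 21.95 and 22.6 CPM at E18.5 to 5.2 and 6.55 CPM in adult duodenum and 10.5 and 10.55 CPM in adult ileum (-1.39 ± 0.29 SE, adjusted p = 0.019 by limma). Birc5, survivin of the chromosomal passenger complex, fell from 101.5 and 100.35 CPM to 34.45 and 34.6 CPM in duodenum and 51.35 and 37.55 CPM in ileum (-1.35 ± 0.18, adjusted p = 0.003). Rrm2, the subunit of ribonucleotide reductase that limits nucleotide supply, fell from 58.85 and 68.35 CPM to 18.55 and 19.55 CPM in duodenum and 37.0 and 28.65 CPM in ileum (-1.31 ± 0.28, adjusted p = 0.019). In each of these the 4 adult values lay below both embryonic values, and the duodenum was the lower region.

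Mki67 fell less, from 1495.05 and 1617.0 CPM to between 882.2 and 1077.35 CPM (-0.69 ± 0.12 SE, adjusted p = 0.0077 by limma). Ccnb1 fell by 1.09 ± 0.17 on the log2 scale, to between 52.45 and 76.15 CPM, Plk1 by 0.82 ± 0.22, to between 39.3 and 66.4 CPM, and Cdk1 by 0.71 ± 0.23, to between 41.9 and 77.4 CPM, each of them called. Ccnd2 fell by 0.91 ± 0.11, to between 236.95 and 271.85 CPM. Several replication genes were not called: Mcm5 was at 61.95 to 127.75 CPM in the adult libraries (-0.40 ± 0.26, adjusted p = 0.34) and Pcna at 121.9 to 156.2 CPM (-0.34 ± 0.13, adjusted p = 0.12). Ccnd1 spread widely, from 53.0 to 207.75 CPM, around the embryonic 93.4 and 107.1 CPM (0.09 ± 0.45).

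The related genes went the same way, with 25 of 31 other mitotic genes and 10 of 35 other replication genes called lower and 0 higher. Mycn fell most (-2.88 ± 0.31 SE, from a mean of 18.3 to 1.7 CPM, adjusted p = 0.0013 by limma), and Klf4, a factor that opposes division in the gut epithelium, rose most (1.73 ± 0.21, from 24.6 to 85.6 CPM, adjusted p = 0.0022). Cdk6, which partners D cyclins, rose by 0.96 ± 0.12 (adjusted p = 0.0021), from 179.8 to 350.4 CPM, against the direction of Cdk4, which fell by 0.96 ± 0.16. Adult libraries differed from E18.5 also in markers of other cells: 10 Paneth cell markers summed to 12397.75 to 35324.7 CPM against 155.3 to 158.0 CPM, and 10 immune markers to 1494.65 to 3148.05 CPM against 16.4 to 22.4 CPM. The immune sum lay in a part of its list. Only 4 to 7 of the 10 reached 1 CPM in an adult library, against 4 to 6 at E18.5. The list mean of log2(CPM + 1) was 2.11 to 2.66, against 1.04 and 1.37. The part of these cells in the lower division transcripts was not tested.

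Between adult ileum and duodenum of the same 2 mice, no member was called by limma without a block (0 of 50, against 6.88% of 18608 genes), and at an unadjusted p under 0.05 there were 9 members and 3035 genes in all (16.3%). Both ileum libraries lay above both duodenum libraries for 8 of 17 S phase genes and 5 of 25 mitotic genes, against 23.6% of all genes, and the medians were 0.47 for S phase, 0.11 for mitotic and 0.03 for all genes. Without the ileum of mouse 71 these medians were 0.11, -0.10 and -0.02, so that the size of the S phase difference and the direction of the mitotic one rest on that library. Because the regions came from the same mice, the mouse was also taken as a block. That called 5 of 50 members, no larger a share than the 11.1% of all genes. Ccnd1 was at 97.95 and 53.0 CPM in the duodenum of mice 71 and 77 and at 207.75 and 117.9 CPM in their ileum, about the same step in each mouse (1.11 ± 0.12 SE, adjusted p = 0.00084 by limma with the block). Rrm2 gave 18.55 and 19.55 CPM in duodenum and 37.0 and 28.65 CPM in ileum (0.74 ± 0.18, adjusted p = 0.041), Mcm4 112.2 and 74.1 CPM against 168.6 and 120.2 CPM (0.64 ± 0.12, adjusted p = 0.013), and Uhrf1, which carries DNA methylation through replication, 78.15 and 63.1 CPM against 128.45 and 90.2 CPM (0.61 ± 0.13, adjusted p = 0.021). Cdk2 went the other way, 67.6 and 88.25 CPM in duodenum and 49.65 and 46.05 CPM in ileum (-0.68 ± 0.16, adjusted p = 0.031). Without the ileum of mouse 77 the fit without a block called 4 members, and without the duodenum of mouse 71 it called 3. Mki67 overlapped between the regions, at 982.25 and 911.95 CPM in duodenum and 1077.35 and 882.2 CPM in ileum.

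Of 13 CDK inhibitors tested, 3 were called lower in the ileum and 0 higher without a block, against 4.64% of all genes called lower, and the other 10 did not pass the test. Cdkn1c was at a mean of 44.7 CPM in duodenum and 11.9 CPM in ileum (-1.84 ± 0.23 SE, adjusted p = 0.0071 by limma), and Cdkn1a, p21, at 66.4 and 20.4 CPM (-1.65 ± 0.23, adjusted p = 0.011). Cdc7, the kinase that fires origins, was the related gene called higher (0.80 ± 0.21, adjusted p = 0.093). Enterocyte markers summed to 1393.5 to 1957.3 CPM in duodenum and 724.1 to 809.85 CPM in ileum, with 11 of 12 below in both ileum libraries, and all 6 tuft cell markers were called lower. Their part in the difference was not tested.

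In the tamoxifen set, 2 of the 5 libraries, the library labelled HE 1 and the library labelled cKO 2, carry the other genotype in the supplementary dataset of the study, and the deposited count of Lgr5 takes in the whole gene, which checks neither version. By the deposited labels 0 of 50 members were called, against 10 of 19848 genes (0.0504%), and 0 members had an unadjusted p under 0.05, against 902 genes (4.54%) by limma. With the genotypes of the supplementary dataset 0 of 50 were called, against 3.92% of all genes, and 45 of 50 members were lower in cKO, with a median log2 fold change of -0.21 against 0.13 over all genes. The S phase median was -0.30 and the mitotic one -0.17. Rrm2 (-0.58 ± 0.15 SE, adjusted p = 0.09 by limma) and Mcm10 (-0.47 ± 0.12, adjusted p = 0.091) passed the FDR and missed the fold limit. Mcm2, Mcm3, Mcm5, Mcm6, Mcm7, Cdt1, Pcna and Rrm1, also of S phase, were the other members at an unadjusted p under 0.05 by limma, with 4246 of 19848 genes in all. The share of members below that p was thus no larger than the share of all genes. Mki67 was at 1495.7 and 1317.2 CPM in the libraries labelled HE and at 1230.2, 1625.2 and 1351.5 CPM in those labelled cKO. Mcm5 was at 165.9 and 193.25 CPM against 166.5, 205.2 and 151.65 CPM. The library labelled cKO 2 was the highest of the 5 for both, as it was for the mean of the S phase genes (7.03, against 6.61 to 6.84 in the others) and of the mitotic genes (6.88, against 6.34 to 6.71). In the supplementary dataset that library is HE, so that its high values stand on the HE side of the medians with those genotypes.

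**Figure D3:**
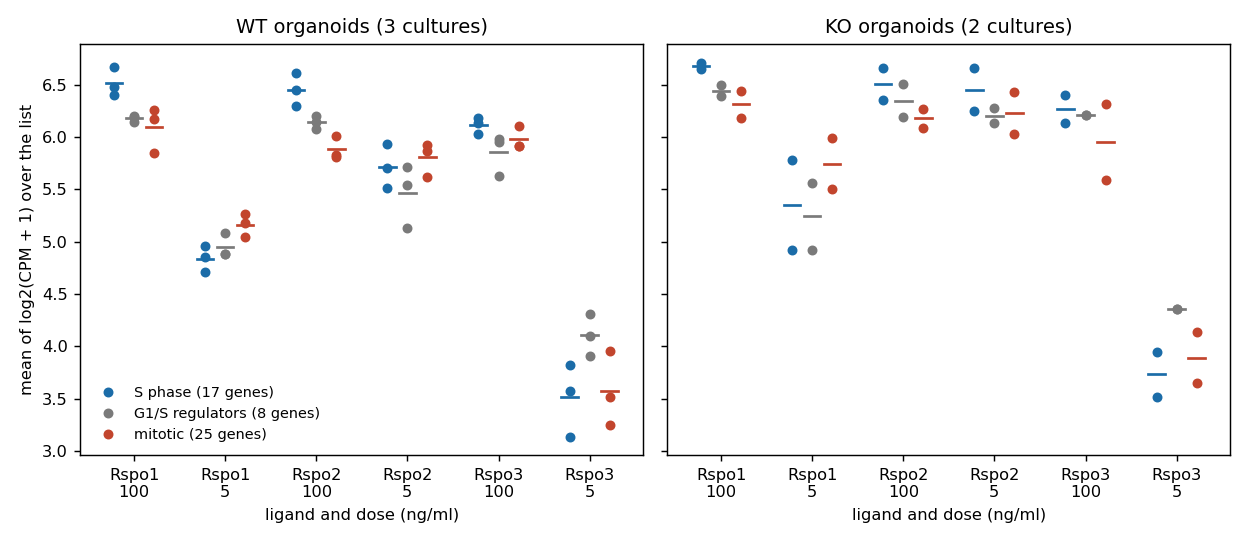
Mean of log2(CPM + 1) over the S phase, G1/S and mitotic genes (y axis) in each organoid library, by ligand and dose in ng/ml (x axis), for WT and KO cultures, with a bar at the group mean. With Rspo3 at 5 ng/ml the S phase means drop to 3.14 to 3.95, while with Rspo2 the KO means stay at 6.25 to 6.66 at both doses; the y axis does not start at 0.

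In organoids the question was how the division genes differed between 100 and 5 ng/ml of each ligand, in each genotype. All contrasts were read from 1 limma fit of 19130 genes over the 30 libraries and called at an FDR of 0.05. CPM are shares of a library, and in the dose contrasts the median of all genes was 0.04 to 0.28 rather than 0; with TMM scaling it was -0.04 to 0.05. The members are therefore set beside the median of all genes each time.

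With Rspo1, 46 of 50 members were higher at 100 than at 5 ng/ml in WT organoids, against 40.9% of all genes called higher, and 0 were lower. The median was 1.76 for S phase, 1.33 for G1/S and 0.96 for mitotic genes, against 0.28 over all genes, and with TMM scaling the number of mitotic genes called fell from 22 to 15. In KO organoids 32 were higher, against 21.9% of all genes: 16 of 17 S phase genes, all 8 G1/S genes and 8 of 25 mitotic genes, with medians of 1.5, 1.08 and 0.58. With the culture as a block 15 mitotic genes were called in KO, where 43.8% of all genes were called in either direction, and the S phase and G1/S counts were again 16 and 8. With TMM scaling 21 members were called in KO, among them 1 mitotic gene, and without culture KO 7 there were 2.

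In WT organoids, Ung went from 7.95, 7.25 and 6.55 CPM at 5 ng/ml to 39.2, 38.4 and 42.5 CPM at 100 ng/ml (2.32 ± 0.28 SE, adjusted p = 1.1e-06 by limma). Mcm2 went from 27.45, 31.4 and 28.35 CPM to 124.9, 142.45 and 168.15 CPM (2.27 ± 0.23, adjusted p = 1.8e-07), and Uhrf1 from 36.7, 56.3 and 53.55 CPM to 194.2, 212.4 and 262.2 CPM (2.18 ± 0.25). The doses were far apart for each of these replication genes. Mki67 moved less, from 207.7, 338.95 and 292.0 CPM to 443.75, 718.1 and 664.6 CPM (1.12 ± 0.23, adjusted p = 0.00029). Ccnb1 moved less still, from 31.45, 39.25 and 39.65 CPM to 46.25, 57.6 and 72.5 CPM (0.65 ± 0.23, adjusted p = 0.02).

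In KO organoids, Ccnd1 led, from 29.35 and 50.45 CPM in cultures 7 and 2 at 5 ng/ml of Rspo1 to 292.45 and 161.7 CPM at 100 ng/ml (2.47 ± 0.54 SE, adjusted p = 0.0018 by limma). Ung went from 5.75 and 15.2 CPM to 37.4 and 41.5 CPM (1.95 ± 0.34), and Mcm2 from 34.2 and 70.3 CPM to 183.0 and 169.3 CPM (1.82 ± 0.28). In each of the 3 the culture KO 7 had the lower value at 5 ng/ml. Mki67, from 354.8 and 482.0 CPM to 656.25 and 645.25 CPM (0.65 ± 0.28, adjusted p = 0.078), and Ccnb1, from 48.0 and 70.15 CPM to 64.7 and 84.15 CPM (0.34 ± 0.28, adjusted p = 0.37), were not called. The difference between the genotypes in their response to Rspo1 was tested as an interaction and called 0 members and 0 of all genes by limma, with 0 members and 516 genes at an unadjusted p under 0.05 (2.7%).

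With Rspo2 the replication genes and the mitotic genes parted. In WT organoids 16 members were higher at 100 ng/ml, against 24.3% of all genes, and they were 11 S phase genes, 5 G1/S genes and 0 of 25 mitotic genes. The medians were 0.78, 0.62 and 0.05, against 0.17 over all genes, and with TMM scaling the mitotic median turned to -0.18 while that of S phase was 0.54. The S phase mean of culture WT 5 moved least with dose, by 0.36 on the log2 scale, and those of WT 10 and WT 30 moved by 0.75 and 1.09. Without WT 30 the number of members called was 2.

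Ung went from 15.6, 21.25 and 9.85 CPM at 5 ng/ml of Rspo2 to 48.15, 37.6 and 49.0 CPM at 100 ng/ml in WT organoids (1.52 ± 0.28 SE, adjusted p = 0.00041 by limma). Ccnd1 went from 53.4, 63.55 and 20.6 CPM to 129.3, 140.95 and 96.7 CPM (1.52 ± 0.44, adjusted p = 0.012), and E2f1, the E2F that is itself an E2F target, from 11.25, 16.05 and 8.85 CPM to 31.7, 27.2 and 29.3 CPM (1.25 ± 0.20, adjusted p = 0.00011). None of these 3 overlapped between the doses. Mki67, on the other hand, was at 470.85, 585.95 and 473.45 CPM at 5 ng/ml and at 436.1, 563.9 and 538.15 CPM at 100 ng/ml (0.01 ± 0.23, adjusted p = 0.99). Ccnb1 was at 45.75, 54.4 and 58.35 CPM and at 41.25, 42.3 and 57.4 CPM (-0.17 ± 0.23), Cdk1 at 40.5, 50.4 and 52.0 CPM and at 53.1, 47.3 and 61.4 CPM (0.18 ± 0.20), and Plk1 at 75.45, 87.55 and 86.35 CPM and at 78.4, 84.1 and 98.4 CPM (0.06 ± 0.18). The doses overlapped for all 4 of these mitotic genes.

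In KO organoids no member was called between the doses of Rspo2 by limma (0 of 50, against 22 genes or 0.115%), 0 members and 1327 genes (6.94%) had an unadjusted p under 0.05, and with the culture as a block the members called were again 0. The members' changes ran from -0.28 to 0.71 with a median of 0.01. The 2 cultures moved apart: in KO 7, 47 of 50 members were higher at 100 ng/ml, with a mean change of 0.41 over the S phase genes, and in KO 2 only 4 were, with a mean change of -0.31. Mcm5 shows it, at 128.5 CPM with 5 and 181.5 CPM with 100 ng/ml in KO 7, and at 174.5 and 140.85 CPM in KO 2. Ccnd1 had the largest change among members, from 206.8 to 450.3 CPM in KO 7 and from 147.8 to 182.0 CPM in KO 2 (0.71 ± 0.54 SE, adjusted p = 0.89).

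The interaction of dose and genotype for Rspo2 called 84 genes (0.439%) and 0 members. At an unadjusted p under 0.05 there were 13 members, 11 of them S phase genes, and 2438 genes in all (12.7%) by limma. The S phase genes had an interaction median of -0.76 and the mitotic genes one of -0.17, against -0.12 over all genes. Without culture KO 2 these medians were -0.34, 0.16 and -0.08, and without KO 7 they were -1.11, -0.43 and -0.15. Cdk2, at 31.5, 37.75 and 26.55 CPM with 5 ng/ml and 65.35, 51.1 and 61.25 CPM with 100 ng/ml in WT and at 41.4 and 60.6 CPM and 50.5 and 50.85 CPM in KO, was the 1 member called with the culture as a block (-0.86 ± 0.21 SE, adjusted p = 0.029, where 3.97% of all genes were called). Without culture KO 7 the fit without a block called 4.

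**Figure D4:**
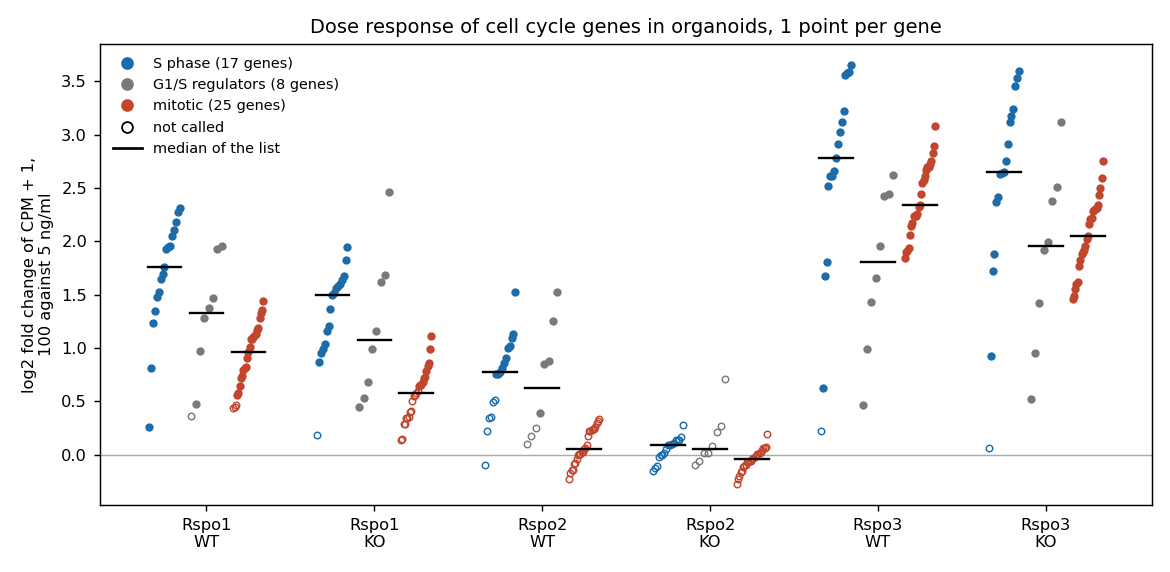
Log2 fold change of CPM + 1 between 100 and 5 ng/ml (y axis) of each member for 3 ligands in WT and KO organoids (x axis), filled where called, with a bar at the median of each list. Mitotic medians run from -0.04 with Rspo2 in KO to 2.34 with Rspo3 in WT, and S phase medians from 0.09 to 2.79.

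With Rspo3 nearly all members were higher at the higher dose. In WT organoids 49 members were higher at 100 ng/ml, against 37.8% of all genes, and in KO organoids 49, against 32.7%. Gins2, a subunit of the replicative helicase complex, was the 1 member left in each, at 58.25, 49.8 and 56.85 CPM with 5 ng/ml and 65.45, 59.2 and 68.6 CPM with 100 ng/ml in WT (0.23 ± 0.10 SE, adjusted p = 0.059 by limma). The medians in WT were 2.79 for S phase, 1.81 for G1/S and 2.34 for mitotic genes, and in KO 2.66, 1.95 and 2.05, against 0.24 over all genes in both. The interaction of dose and genotype called 0 genes by limma, and at an unadjusted p under 0.05 there were 0 members and 430 genes (2.25%).

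Mcm3, Uhrf1 and Mcm5 led in WT. Mcm3 went from 3.8, 8.55 and 7.7 CPM at 5 ng/ml of Rspo3 to 98.8, 91.15 and 85.6 CPM at 100 ng/ml (3.65 ± 0.26 SE, adjusted p = 8e-10 by limma), Uhrf1 from 8.2, 17 and 13.8 CPM to 173.3, 161.35 and 149.95 CPM (3.59 ± 0.25), and Mcm5 from 5.35, 12.65 and 8.4 CPM to 112.0, 117.75 and 102.35 CPM (3.58 ± 0.24). In KO, Mcm3 went from 6.5 and 11.6 CPM to 114.3 and 118.5 CPM (3.59 ± 0.31), Uhrf1 from 11.4 and 18.85 CPM to 168.75 and 192.15 CPM (3.53 ± 0.30) and Mcm2 from 9.1 and 11.8 CPM to 120.15 and 128.35 CPM (3.46 ± 0.28). In both genotypes the 3 largest changes were thus those of replication genes.

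The mitotic genes followed with Rspo3, unlike with Rspo2. Mki67 went from 64.75, 122.65 and 77.3 CPM to 570.3, 549.1 and 548.7 CPM in WT (2.69 ± 0.23 SE, adjusted p = 4e-09 by limma) and from 89.6 and 116.75 CPM to 380.65 and 604.5 CPM in KO (2.22 ± 0.28, adjusted p = 1.5e-06). Cdk1 went from 6.25, 11.25 and 7.25 CPM to 49.5, 48.75 and 57.8 CPM in WT (2.55 ± 0.20) and from 8.1 and 12.55 CPM to 43.35 and 67.7 CPM in KO (2.31 ± 0.25). At 100 ng/ml culture KO 7 was lower than KO 2 for both. Ccnb1 rose by 2.24 ± 0.23 in WT and 1.95 ± 0.28 in KO, and Plk1 by 1.91 ± 0.18 and 1.60 ± 0.22. Pcna, an S phase gene, rose by less than Mcm2, Mcm3, Mcm5 and Uhrf1, by 0.63 ± 0.15 in WT and 0.92 ± 0.18 in KO, and was at 56.2, 69.8 and 83.8 CPM in WT at 5 ng/ml.

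**Figure D5:**
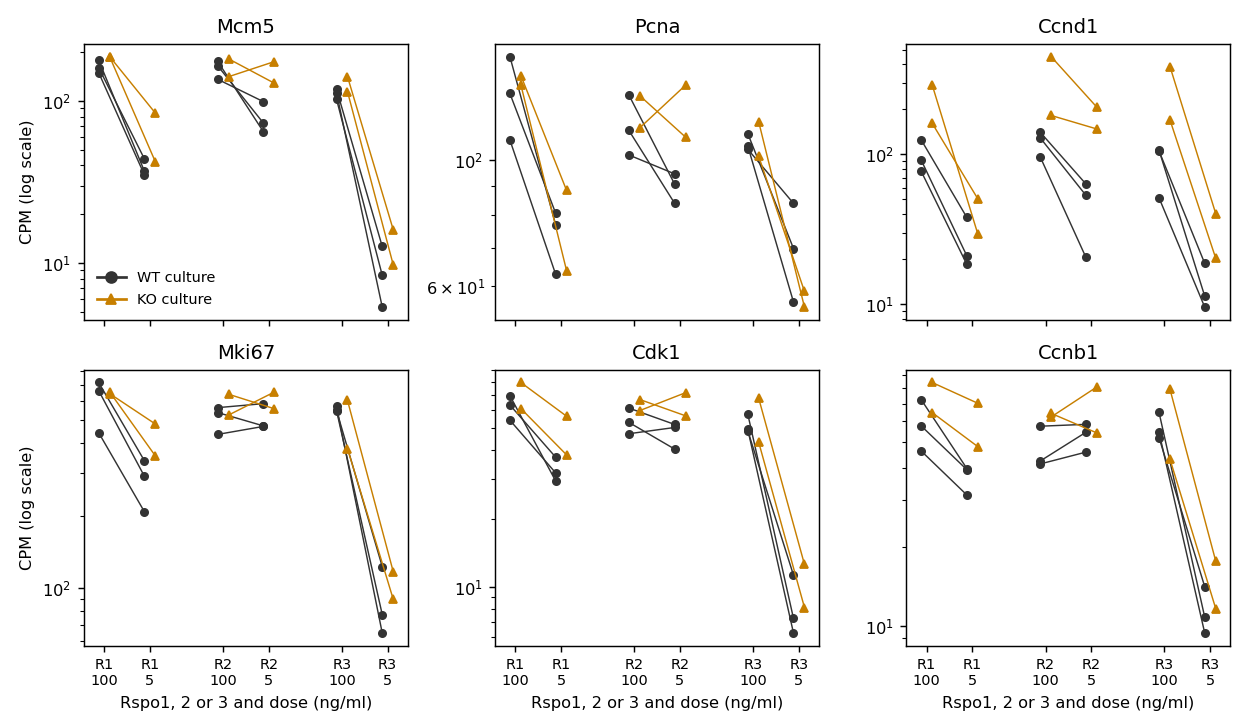
CPM on a log axis (y) of 6 members in each organoid culture at 100 and 5 ng/ml of Rspo1, Rspo2 or Rspo3 (x), with a line joining the doses of 1 culture. Mcm5 is lower at 5 than at 100 ng/ml in each culture with Rspo1 and Rspo3 (5.35 CPM in culture WT 10 with Rspo3 at 5 ng/ml), and the 2 KO cultures cross with Rspo2.

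The genes around the members followed the dose too. Cdk6 had the largest rise among the related genes with Rspo1 in WT, from a mean of 39.7 to 372.6 CPM (3.19 ± 0.26 SE, adjusted p = 2.3e-08 by limma), with Rspo2 in WT, from 136.7 to 604.5 CPM (2.17 ± 0.26), with Rspo1 in KO, from 71.0 to 511.9 CPM (2.86 ± 0.32), and with Rspo3 in KO, from 32.5 to 359.9 CPM (3.42 ± 0.32). Only with Rspo2 in KO was it not called, at 381.3 and 520.3 CPM (0.42 ± 0.32, adjusted p = 0.89). Myc rose in the same 5 dose comparisons, by 1.04 ± 0.25 to 2.46 ± 0.30, and had a change of 0.08 ± 0.30 with Rspo2 in KO. Pola1, of the primase complex, led with Rspo3 in WT (3.39 ± 0.25, from 4.2 to 51.0 CPM).

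Some CDK inhibitors were lower at the higher dose, but their list as a whole moved little. In WT its mean log2(CPM + 1) at 100 and 5 ng/ml was 5.01 and 5.11 with Rspo1. With Rspo2 it was 5.01 and 5.26, and with Rspo3 5.13 and 5.16. In KO, in the same order of ligands, it was 5.01 and 5.07, 5.02 and 5.04, and 5.13 and 5.17. Cdkn2b, p15, fell by 1.47 ± 0.24 SE with Rspo1 in WT (from a mean of 76.0 to 27.2 CPM), by 1.66 ± 0.24 with Rspo3 in WT, by 1.48 ± 0.30 with Rspo1 in KO and by 1.48 ± 0.30 with Rspo3 in KO, all called by limma. Cdkn1c fell with Rspo1 and Rspo3 in both genotypes, from a mean of 59.0 to 27.2 CPM with Rspo1 in WT (-1.07 ± 0.20, adjusted p = 0.00015). With Rspo2 in WT the largest fall was that of E2f2, from 183.1 to 56.2 CPM (-1.73 ± 0.24, adjusted p = 2.7e-05), opposite to E2f1, and Cdkn1a fell by 0.65 ± 0.22 (adjusted p = 0.029). Of the other replication genes, 34 of 35 were called higher with Rspo1, 25 with Rspo2 and 33 with Rspo3 in WT, and of 31 other mitotic genes 29, 4 and 31. The shares of all genes called higher were 40.9%, 24.3% and 37.8%, in that order. These other genes parted with Rspo2 in WT as the members did. They were read from the same libraries, so that they are no separate evidence of the split.

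Markers of cell types moved with dose. Stem cell markers summed to 2946.75 to 3752.95 CPM with Rspo1 at 100 ng/ml and 526.9 to 577.05 CPM at 5 ng/ml in WT, to 4221.2 to 6287.75 CPM and 534.3 to 1349.8 CPM with Rspo2, and to 1470.55 to 1956.95 CPM and 141.8 to 231.15 CPM with Rspo3. Enterocyte markers went the other way, from 4494.8 to 4830.65 CPM up to 10587.2 to 11535.05 CPM with Rspo1, and from 7016.15 to 11155.5 CPM up to 15468.45 to 16347.9 CPM with Rspo3. In KO with Rspo2, where no member was called, the stem cell markers were at 3407.65 to 3740.15 CPM and 1842.65 to 3902.95 CPM, with no gap between the doses. The part of these cell types in the dose changes was not tested.

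Comparing KO with WT organoids at the same ligand and dose, calls among the members came only with Rspo2 at 5 ng/ml: 8 members were higher in KO, against 3.18% of all genes, 5 of S phase, 3 of G1/S and 0 mitotic. In 37 of the 50 both KO cultures lay above all 3 WT cultures (26% of all genes), 16 of 17 for S phase and 17 of 25 for mitotic genes, and the medians were 0.76 and 0.41, against 0.09 over all genes. Ccnd1 was at 206.8 and 147.8 CPM in KO and at 53.4, 63.55 and 20.6 CPM in WT (2.05 ± 0.49 SE, adjusted p = 0.022 by limma). Ccnd2 was at 874.7 and 672.65 CPM against 373.0, 397.95 and 231.45 CPM (1.24 ± 0.28, adjusted p = 0.016), and Cdc6 at 20.75 and 33.25 CPM against 11.4, 16.3 and 8.35 CPM (1.11 ± 0.31, adjusted p = 0.041). The genotypes did not overlap for any of the 3. The other 5 called were Mcm2, Mcm3, Mcm4, Mcm7 and E2f1.

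Mki67 was at 558.15 and 655.1 CPM in KO and at 470.85, 585.95 and 473.45 CPM in WT with Rspo2 at 5 ng/ml (0.25 ± 0.25 SE, adjusted p = 0.6 by limma), and Mcm5 at 128.5 and 174.5 CPM against 73.05, 98.9 and 64.6 CPM (0.94 ± 0.27, adjusted p = 0.051). Only the latter did not overlap. The count of 8 was not firm: with the culture as a random block it was 5, of 4.78% of all genes, without culture WT 30 it was 0, without WT 10 it was 1, without KO 2 it was 2, and without KO 7 it was 17. Cdk6 (1.52 ± 0.29, adjusted p = 0.0052) and Myc (1.25 ± 0.27, adjusted p = 0.013) were higher in KO as well, and E2f2 was lower (-1.25 ± 0.27, adjusted p = 0.013). Stem cell markers summed to 1842.65 to 3902.95 CPM in KO and 534.3 to 1349.8 CPM in WT, and their part was not tested.

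In the other 5 comparisons of genotype the members called were 0 by limma, against 0.214% of all genes with Rspo1 at 100 ng/ml, 0.125% with Rspo1 at 5, 1.2% with Rspo2 at 100, 0.868% with Rspo3 at 100 and 0.193% with Rspo3 at 5. At an unadjusted p under 0.05 the members numbered 2, 29, 6, 3 and 2, in that order, against 8.82%, 8.36%, 12.3%, 10.7% and 5.4% of all genes, so that only with Rspo1 at 5 ng/ml was the share of members above that of all genes. With Rspo1 at 5 ng/ml, 48 of 50 members were higher in KO, and for 23 of 25 mitotic genes both KO cultures lay above all WT cultures (12.9% of all genes), with medians of 0.59 for mitotic, 0.55 for S phase and 0.03 for all genes. Without culture KO 2 the medians were 0.36 for mitotic, 0.13 for S phase and -0.04 for all genes. Mki67 was at 354.8 and 482.0 CPM in KO against 207.7, 338.95 and 292.0 CPM in WT (0.59 ± 0.25 SE, adjusted p = 0.54), and Cdk1 at 38.15 and 56.5 CPM against 37.3, 31.8 and 29.3 CPM (0.50 ± 0.23, adjusted p = 0.56). Without culture KO 7 the number of members called there was 3, and with Rspo3 at 100 ng/ml it was 2 without culture KO 2.

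The ligands were compared with Rspo1 at the same dose in each genotype; these comparisons share the Rspo1 libraries. At 100 ng/ml in WT, Rspo2 and Rspo1 differed in 0 members by limma (0.204% of all genes called, with 2 members and 1241 genes, or 6.49%, at an unadjusted p under 0.05). Rspo3 and Rspo1 also differed in 0 (0.00523%), with 9 members and 4271 genes (22.3%) at an unadjusted p under 0.05, but all 3 Rspo3 libraries lay below all Rspo1 libraries for 13 of 17 S phase genes and 3 of 25 mitotic genes, against 21.6% of all genes, and the S phase median was -0.43 against -0.14 over all genes. With the culture as a block 4 of 50 members were called, all lower with Rspo3, a smaller share than the 15.2% of all genes called. They were Cdk2, at 45.25, 45.5 and 36.65 CPM against 64.05, 58.2 and 62.45 CPM with Rspo1 (-0.53 ± 0.14 SE, adjusted p = 0.018), E2f1, at 18.05, 20.25 and 15.3 CPM against 26.2, 29.5 and 28.55 CPM (-0.63 ± 0.18, adjusted p = 0.025), and, at the edge of the threshold, Cdc6 and Cdc45.

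At 5 ng/ml the ligands separated. By the paper, only Rspo2 of these ligands gave full organoid survival at this dose, and the part of survival was not tested. With Rspo2, 28 members were higher than with Rspo1 in WT, against 16.4% of all genes (44 with the culture as a block, against 35.9% of all genes called), 13 each of S phase and mitotic genes without the block and 15 and 23 with it. With Rspo3, 44 were lower than with Rspo1 in WT, against 12.7% of all genes, all 25 mitotic genes among them. The number with Rspo2 in WT was 8 without culture WT 10, 17 without WT 5 and 16 without WT 30. In KO, 22 were higher with Rspo2 than with Rspo1, against 13.6% (35 with the block, against 31.9% called), 16 of S phase and 2 mitotic without the block and 16 and 13 with it, and 44 were lower with Rspo3, against 13.1%. The number with Rspo2 in KO was 1 without culture KO 7.

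Uhrf1 was at 116.75, 143.2 and 106.95 CPM with Rspo2 at 5 ng/ml, 36.7, 56.3 and 53.55 CPM with Rspo1 and 8.2, 17 and 13.8 CPM with Rspo3 in WT organoids. Against Rspo1 that was 1.32 ± 0.25 SE higher with Rspo2 and 1.86 ± 0.25 lower with Rspo3 on the log2 scale (adjusted p = 0.00092 and 4.9e-05 by limma). Mcm2 followed the same order, with a rise of 1.21 ± 0.23 with Rspo2, as did Nusap1, a microtubule protein of the spindle, at 34.55, 40.35 and 50.05 CPM with Rspo2, 13.9, 20.6 and 19.6 CPM with Rspo1 and 4.65, 7.7 and 5.4 CPM with Rspo3 (1.17 ± 0.23 with Rspo2). The largest falls with Rspo3 in WT were those of Mcm5 (-2.08 ± 0.24), Mcm3 (-2.04 ± 0.26) and Cenpa, the histone of centromeres (-1.91 ± 0.26). For Uhrf1, Mcm2, Nusap1, Mcm3 and Mcm5 the 3 ligands did not overlap at this dose, whereas Cenpa overlapped between Rspo1 and Rspo2.

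In KO at 5 ng/ml, Ccnd1 was at 206.8 and 147.8 CPM with Rspo2, 29.35 and 50.45 CPM with Rspo1 and 40.25 and 20.25 CPM with Rspo3, so that Rspo2 stood apart (2.15 ± 0.54 SE against Rspo1, adjusted p = 0.009 by limma) and Rspo1 and Rspo3 overlapped. Top2a was at 352.45 and 435.15 CPM with Rspo2, 168.55 and 265.0 CPM with Rspo1 and 35.85 and 56.9 CPM with Rspo3 (-2.20 ± 0.28 with Rspo3, adjusted p = 4.6e-05). Uhrf1 and Mcm3 fell most with Rspo3, by 2.36 ± 0.30 and 2.35 ± 0.31, and Ung and Mcm2 rose with Rspo2 by 1.55 ± 0.34 and 1.47 ± 0.28. The 6 members not called between Rspo3 and Rspo1 were the same in both genotypes: Ccnd1, Ccnd2, Ccnd3, Pcna, Gins2 and Cdt1.

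The balance of S phase over mitotic genes, taken as the difference of their mean log2(CPM + 1), summarises the libraries. In the sorted Lgr5-DTReGFP cells it was -0.23 and -0.04 in E16.5 HE pools, 0.06 and 0.16 in KO pools, -0.50 and -0.56 at E18.5, -0.28 and -0.46 in adult duodenum and -0.04 and -0.10 in adult ileum. In the tamoxifen set, also of adult ileum, it was 0.03 and 0.42 in the libraries labelled HE. In those labelled cKO it was 0.29, 0.15 and 0.20. In organoids with Rspo1 it was 0.27 to 0.55 at 100 ng/ml and -0.58 to -0.21 at 5 ng/ml over all 5 cultures. With Rspo2 at 100 ng/ml it was 0.26 to 0.64, and at 5 ng/ml it was 0.22 and 0.23 in KO but -0.35 to 0.08 in WT. With Rspo3 it was -0.08 to 0.55 at 100 ng/ml and -0.19 to 0.06 at 5 ng/ml. The difference is one of levels between lists and carries no test.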

How the data were processed

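RNA-seq libraries of sorted cells and of organoids were read from 2 deposited tables of CPM (counts scaled to the library total), which per the labels and methods the authors made with Trimmomatic 0.36, STAR 2.5.3a on GRCm38.p4, and HTSeq 0.9.1 on the Ensembl annotation, and rounded to steps of 0.05. The paper names 2 library kits, Ovation SoLo and NEBNext, and does not say which libraries were made with which. The part of the kit in differences between groups was not tested. Values were tested as log2(CPM + 1) with limma 3.58.1 (R 4.3.3), since CPM are not counts. Sorted cells were fitted per comparison on genes at 1 CPM or more in as many libraries as the smaller group holds, and a call needed an FDR below 0.1 with more than a 1.5-fold change. Organoids were fitted as 12 groups on genes at 1 CPM or more in 2 libraries, and called at an FDR of 0.05, with Benjamini-Hochberg adjustment over all genes throughout. Whole reads were recovered for the sorted cells and also tested with edgeR 4.0.16 and DESeq2 1.42.0 at E16.5. The tests were tried on simulated independent counts. No effect of a shared litter, mouse or culture was simulated, so that this trial does not bear on dependence between libraries. Fold changes on this scale understate changes of low genes. Pool numbers at E16.5 mark litters, and gut regions and organoid treatments share mice and cultures per the labels (correlation of deviations -0.04, 0.34 and 0.11 to 0.83), so blocked fits were also made. In each comparison the 3 called members with the largest rise and fall were named, with Mki67, Pcna, Mcm5, Ccnb1, Cdk1, Ccnd1, Ccnd2, Ccne1 and Plk1 and, of related genes, the largest rise and fall, Cdkn1a, Cdkn1c, Myc and Cdk6. Other genes were chosen after their values were seen. Members and lists were chosen with earlier results of these data known.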

Additional observations from a re-analysis of the deposited data

Results flagged for a closer look

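In the 4 adult libraries of duodenum and ileum, 4 of 50 members had 1 value far from the others by Dixon's criterion, each time the ileum of mouse 71 on the high side. Mcm2 was at 122.85 CPM there and at 67.6 to 75.35 CPM in the other 3 libraries. Tyms, which makes thymidylate, was at 73.25 CPM against 43.8 to 48.1 CPM. Cdc25c was at 17.05 CPM against 11.0 to 11.45 CPM, and Cenpf, a kinetochore protein, at 209.95 CPM against 162.75 to 170.0 CPM. Chance alone flags about 1 in 20 groups. Of 150 tests of dose by genotype over the members, 0 passed the threshold by limma.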

How the results depend on the processing

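The number of members called was within 1.5-fold of the reported one in 212 of 243 alternatives. With litter, mouse or culture as a replicate block it went from 0 to 2 for KO against HE at E16.5, from 0 to 5 between adult regions, from 0 to 4 for Rspo3 against Rspo1 at 100 ng/ml in WT, from 28 to 44 and from 22 to 35 for Rspo2 against Rspo1 at 5 ng/ml in WT and KO, from 0 to 1 for dose by genotype with Rspo2, and from 8 to 5 for KO against WT with Rspo2 at 5 ng/ml; elsewhere the block kept the count over all members within 1.5-fold, although that of mitotic genes went from 8 to 15 for the dose of Rspo1 in KO. Replicate numbers of the stages and of the tamoxifen set are shared numbers only, and the block there left 32 members called for adult against E18.5. TMM scaling gave 1 member between adult regions, 21 for the dose of Rspo1 in KO and 5 for KO against WT with Rspo2 at 5 ng/ml; for the last, a pseudocount of 0.1 gave 5 and keeping every gene with a nonzero library gave 1. Leaving out 1 library or culture gave 0 to 3 at E16.5, 10 to 42 for adult against E18.5, 0 to 4 between regions, 2 to 19 and 2 to 31 for the dose of Rspo2 in WT and Rspo1 in KO, 0 to 3, 0 to 17 and 0 to 2 for KO against WT with Rspo1 at 5, Rspo2 at 5 and Rspo3 at 100 ng/ml, 8 to 38 and 1 to 23 for Rspo2 against Rspo1 at 5 ng/ml in WT and KO, and 0 to 4 for dose by genotype with Rspo2. The cause was not tested, beyond the fewer samples. Of 1132 values of named genes under alternatives, 1051 kept direction and call, 81 lost the call and 0 reversed. Depth was lowest in E16.5 HE pools.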
